A study of Homo sapiens with 12 samples.

Results

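The genes described here are 44 lysosomal genes, chosen by name with earlier results of these data known. They are iduronate 2-sulfatase (IDS) with other acid hydrolases, membrane proteins, proton pump subunits and the transcription factors TFEB and TFE3. All 44 were found among the 22506 genes of the count table, and all 44 were among the 14008 with enough reads to be tested. RNA sequencing had been run on 12 libraries of H1703, H1299, CHAGO and CALU, human lines that the series title places under lung squamous cell carcinoma. Each line gave 1 library of tumor-initiating cells (TICs, which are thought to start and sustain a tumor) with PRKCI knocked down, 1 of TICs without the knockdown, and 1 of parental cells, which the labels also call adherent. The lines are thus the 4 replicates of a state. States were compared within lines, so each p-value sets a difference between states against how much it varies from line to line. The sources used here do not say how TICs were obtained or how PRKCI was knocked down.

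Lysosomes are acidic compartments that break down proteins, lipids and sugar chains delivered by endocytosis and autophagy. Their hydrolases are made in the secretory pathway, most are tagged with mannose 6-phosphate, and they need the low pH set by the vacuolar proton pump. TFEB and TFE3 are related factors that move to the nucleus when the kinase mTORC1 is inactive and bind a palindromic DNA element found near the start of many lysosomal genes.

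H1703 and H1299 gave 6 libraries with total counts of 21.2 to 36.1 M (1 M is 1000000 reads), and CHAGO and CALU gave 6 with 63.8 to 91.8 M, so depth differed by line more than by state. PRKCI, the knocked-down gene, averaged 37.2 ± 16.1 CPM (counts per 1000000 reads, after TMM scaling of the libraries) in knockdown TICs and 346 ± 185 CPM in TICs (SD, n = 4 each), lower in each line (log2 fold change −3.15 ± 0.37 SE, edgeR adjusted p = 0.0489). Epithelial markers did not mark each line alike: EPCAM, KRT8, KRT18, KRT19 and CDH1 summed to 1950 CPM in CHAGO knockdown TICs, 1780 CPM in CHAGO TICs and 1450 CPM in CHAGO parental cells, against 0.193, 0.765 and 1.64 CPM in the same states of H1703. Of 7 leukocyte and macrophage markers AIF1 and CD3E had no read in any library, and their sum was at most 5.74 CPM in knockdown TICs, 4.39 CPM in TICs and 78.9 CPM in parental cells, the last being ITGAM in H1703. Fibroblast markers reached 364 CPM in knockdown TICs, 1350 CPM in TICs and 555 CPM in parental cells, in each state mostly COL1A1 in CALU, endothelial markers reached 18.1, 47.5 and 28.9 CPM, and neuronal markers 40.7, 21.6 and 6.35 CPM. The part of these markers in the lysosomal values was not tested.

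To show where the DNA element of TFEB and TFE3 occurs among these genes, promoter windows of RefSeq (build GRCh38.p14, 250 bases before to 50 bases after the gene start) were searched. The letters were CACGTG, the core, and TCACGTGA, which contains the core and carries 1 more base on each side, and each reads the same on both strands. A window was matched for 32 of the 44 genes, and 10 of the 32 (31.2%) held the core, against 2548 of all 35116 RefSeq windows (7.26%). The longer form stood in 7 of the 32 windows (21.9%), against 344 of all windows (0.98%). All RefSeq windows were counted, and they were not matched to the 32 in kind of gene or base content. The windows of IDS, which rose in TICs, of the aspartic protease gene CTSD, of the membrane protein gene LAMP1 and of the channel gene MCOLN1 are shown in lower case with each core in capitals, because they span the range seen, with no core in IDS, 1 in CTSD, 2 in MCOLN1 and 6 in LAMP1.

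IDS (chrX:149505257-149505556, minus strand): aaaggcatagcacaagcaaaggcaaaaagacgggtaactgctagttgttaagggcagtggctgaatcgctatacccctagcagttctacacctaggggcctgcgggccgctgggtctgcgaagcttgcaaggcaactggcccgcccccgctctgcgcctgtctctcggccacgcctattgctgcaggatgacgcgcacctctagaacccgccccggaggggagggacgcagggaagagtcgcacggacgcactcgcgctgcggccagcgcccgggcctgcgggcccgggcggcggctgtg
CTSD (chr11:1763878-1764177, minus strand): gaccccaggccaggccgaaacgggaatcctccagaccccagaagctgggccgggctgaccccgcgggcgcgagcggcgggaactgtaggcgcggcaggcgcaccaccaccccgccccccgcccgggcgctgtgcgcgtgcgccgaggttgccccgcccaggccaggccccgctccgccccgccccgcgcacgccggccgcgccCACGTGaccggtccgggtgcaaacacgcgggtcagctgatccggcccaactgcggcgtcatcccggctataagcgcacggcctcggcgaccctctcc
LAMP1 (chr13:113296989-113297288, plus strand): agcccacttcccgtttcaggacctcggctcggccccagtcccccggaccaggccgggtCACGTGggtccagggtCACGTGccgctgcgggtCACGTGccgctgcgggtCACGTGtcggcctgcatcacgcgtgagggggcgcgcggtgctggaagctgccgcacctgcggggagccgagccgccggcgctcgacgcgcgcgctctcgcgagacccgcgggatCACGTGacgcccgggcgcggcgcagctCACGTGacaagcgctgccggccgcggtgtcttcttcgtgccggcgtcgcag
MCOLN1 (chr19:7522374-7522673, plus strand): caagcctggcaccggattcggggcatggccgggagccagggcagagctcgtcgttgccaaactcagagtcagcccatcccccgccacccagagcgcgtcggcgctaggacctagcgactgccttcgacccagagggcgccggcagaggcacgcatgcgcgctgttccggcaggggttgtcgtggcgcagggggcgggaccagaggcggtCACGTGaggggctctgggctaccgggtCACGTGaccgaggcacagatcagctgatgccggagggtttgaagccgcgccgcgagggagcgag

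Of the 13 genes that were higher in TICs than in parental cells at an unadjusted p under 0.05 (given below), 8 had a window, and 1 of these 8 windows, that of CTSD, held the core. Of the other 24 windows 9 held it. No window was matched for HEXA, PSAP, ASAH1, CTSB and LAMP2, which are also among the 13. The counts are therefore incomplete, and no test compared them. LAMP1 and MCOLN1 were not among the 13. A match is a description of the letters, and no binding was measured.

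IDS, the sulfatase that takes sulfate off dermatan and heparan sulfate, rose in TICs in each line. It had 506 CPM in H1703 TICs, 231 CPM in H1299, 236 CPM in CHAGO and 1050 CPM in CALU, against 201, 57.1, 87.4 and 399 CPM in the parental cells of those lines in the same order. The ranges of the states overlapped because CALU parental cells stood above H1299 and CHAGO TICs, while within each line the TIC library was the higher. The means were 507 ± 387 CPM in TICs and 186 ± 155 CPM in parental cells (SD, n = 4 each), a log2 fold change of 1.54 ± 0.18 SE and a 2.91-fold rise (edgeR adjusted p = 0.0212). IDS was the only one of the 44 genes to pass the adjusted threshold of 0.05, which 4 of all 14008 genes passed (0.0286%). That result was known when IDS was chosen. The call was lost on leaving out any 1 line (edgeR adjusted p from 0.113 to 0.143, log2 fold change from 1.39 to 1.60), without the line term (1.45, adjusted p = 1) and from the 8 libraries of both states alone (1.56, adjusted p = 0.314). IDS also has a pseudogene copy, IDSP1, in RefSeq, so its reads are uncertain in origin.

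After PRKCI knockdown IDS stayed above its parental level in each line. Knockdown TICs held 450 CPM in H1703, 177 CPM in H1299, 236 CPM in CHAGO and 720 CPM in CALU, with a mean of 396 ± 246 CPM (SD, n = 4). Against parental cells the log2 fold change was 1.27 ± 0.18 SE, higher in 4 of 4 lines, and it missed the threshold (edgeR adjusted p = 0.0555). It passed with DESeq2 size factors in the same fit (1.31, adjusted p = 0.0460) and with a filter of 5 CPM in 4 libraries (1.28, adjusted p = 0.0390). It also passed in DESeq2 and on the mode-normalized values that the authors deposited. It did not pass without any 1 line (edgeR adjusted p from 0.165 to 0.249), on library totals, without a low-count filter or in limma voom. Nor did it pass without the line term, in either pair of lines, from the compared groups alone or without the CALU knockdown library. Against TICs without the knockdown the log2 fold change was −0.28 ± 0.17 SE, which did not pass (edgeR adjusted p = 0.980). The largest gap between knockdown TICs and TICs was in CALU (−0.55 in log2 CPM), and CHAGO showed the same 236 CPM in both.

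**Figure D1:**
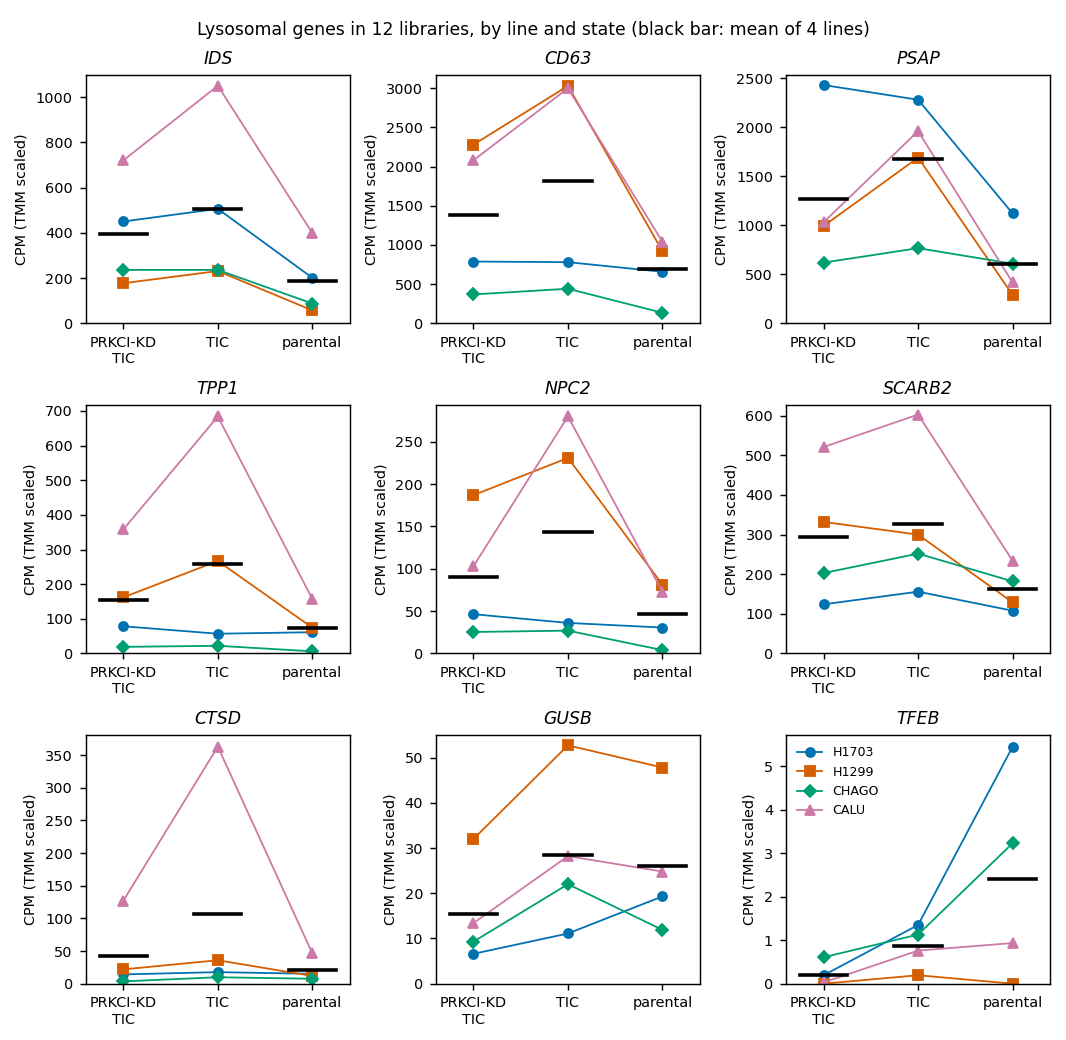
Levels of 9 lysosomal genes in CPM after TMM scaling in PRKCI knockdown TICs, TICs and parental cells. Each line joins the 3 libraries of a cell line, the black bars are means of 4 lines, and the axes differ between panels; IDS is higher in TICs than in parental cells in each line, at 1050 against 399 CPM in CALU and 231 against 57.1 CPM in H1299.

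Across the 44 genes, TICs were the higher state for most. The 44, IDS among them, were chosen with earlier results of these data known, so the counts below are a description. The log2 fold change of TICs over parental cells was above 0 for 34 of 44, beside 48.7% of all genes tested, and its median was 0.41, beside −0.02 over all genes. At an unadjusted p under 0.05 there were 13 higher (beside 5.73% of all genes) and 0 lower (beside 6.06%). In 4 of 4 lines 8 were higher (beside 8.32% of all genes) and 0 lower (beside 8.97%). The 8 were IDS, CD63, PSAP, NPC2, SCARB2, LAMP2, CTSD and HEXA, and the other 5 of the 13 were TPP1, ASAH1, CTSB, NPC1 and CTSL1. Apart from IDS none of these passed over all genes in edgeR, and DESeq2, which called 512 of all 14008 genes (3.66%), called 9 of the 44: IDS, CD63, PSAP, TPP1, NPC2, SCARB2, ASAH1, CTSB and NPC1. In bulk RNA a change in the number of cells of a kind and a change in RNA per cell cannot be told apart.

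The lines differed in the size of these differences. The median difference between TICs and parental cells over the 44 genes was 1.56 in CALU and 1.11 in H1299 on the log2 CPM scale, against 0.03 in H1703 and 0.00 in CHAGO. Over all genes tested this median was 0 in each line. In CALU 38 genes were higher in TICs and 6 lower, in H1299 32 and 12, in H1703 24 and 19, and in CHAGO 22 and 22. A difference of at least 1 upward was reached by 27 genes in CALU and 24 in H1299, against 8 in H1703 and 9 in CHAGO. A difference of at least 1 downward was reached by 0 genes in CALU and 4 in H1299, against 11 in H1703 and 7 in CHAGO, so in H1703 the genes lower by that amount outnumbered those higher. The share of all genes that differed by at least 1 in each line was not counted. These counts therefore do not set the lysosomal genes apart from other genes of a line. With 1 library per line and state the difference between lines was not tested. Without CALU 27 of 43 tested genes were higher in TICs, 6 of them at an unadjusted p under 0.05 (beside 4.33% of all genes), and their median was 0.20. The median was 0.95 without H1703 and 0.70 without CHAGO. With no line term it was 0.91, with 4 genes higher at an unadjusted p under 0.05 (beside 1.26% of all genes).

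**Figure D2:**
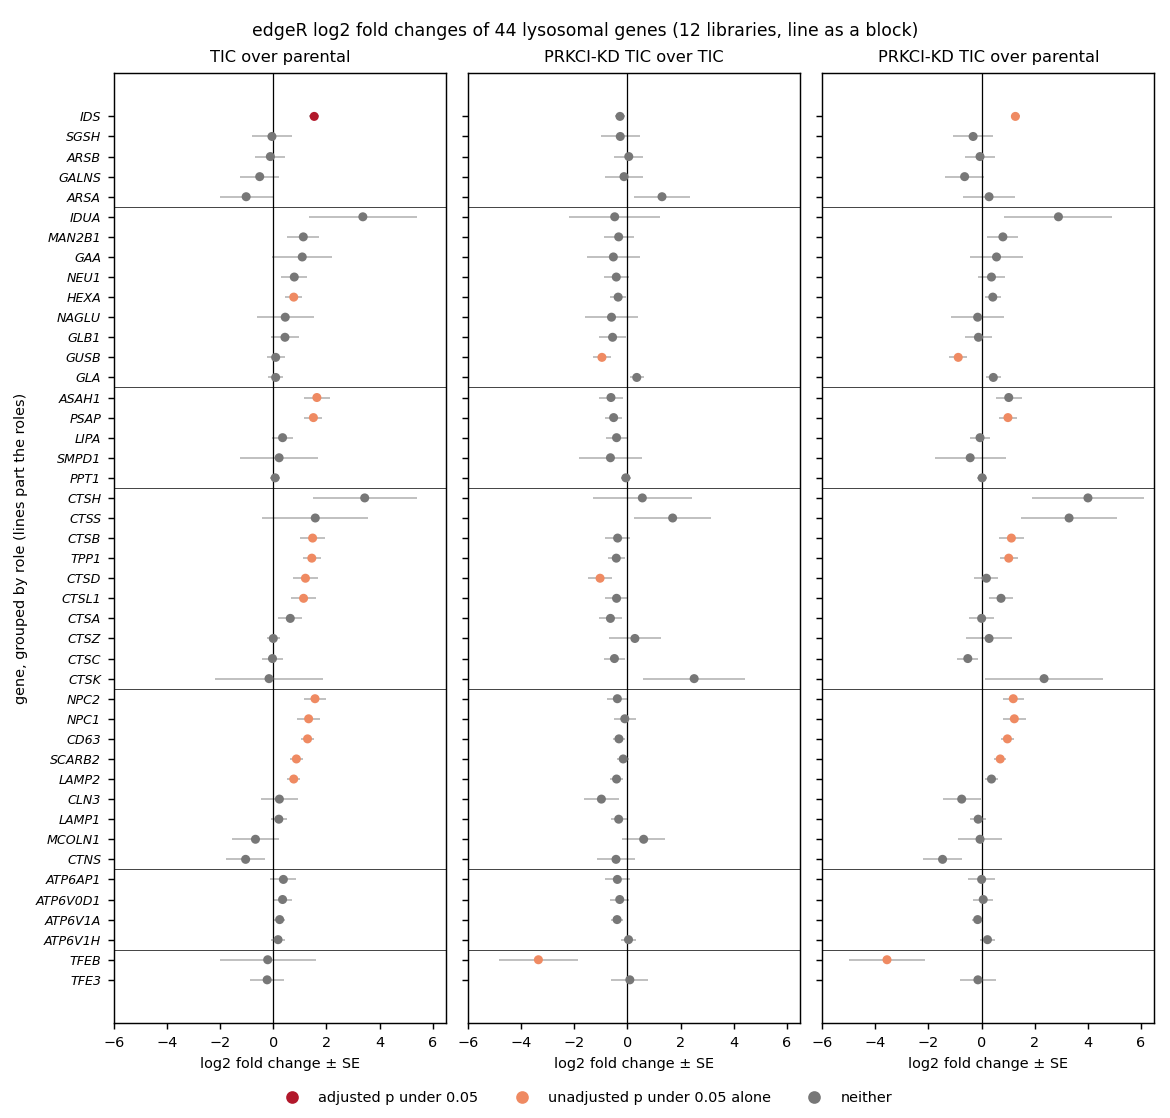
The log2 fold change and its standard error (edgeR, 12 libraries, line as a block) of 44 lysosomal genes in 3 comparisons, grouped by role. IDS alone lies past the adjusted threshold, in TICs over parental cells; 13 genes there and 3 in knockdown TICs over TICs lie past an unadjusted p of 0.05.

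Among the sulfatases, enzymes that remove sulfate groups and share a common active site, IDS had the highest level. Its median over the 12 libraries was 27.9 CPM per kilobase of merged exons (GENCODE lengths), against 3.47 for ARSB, 1.06 for SGSH, 1.04 for GALNS and 0.294 CPM per kilobase for ARSA, which degrades sulfatide. SGSH, which acts on heparan sulfate, had 2.97, 7.39, 0.893 and 7.05 CPM in TICs of H1703, H1299, CHAGO and CALU, against 2.91, 2.78, 3.36 and 4.94 CPM in parental cells. It was higher in TICs of 3 lines and lower in CHAGO. GALNS, which acts on keratan sulfate, had 0.675, 9.81, 3.71 and 2.2 CPM in TICs, against 3.96, 4.42, 3.90 and 3.20 CPM in parental cells, and was higher in H1299 alone. ARSB, which acts on dermatan sulfate, had 14.2, 79.0, 8.99 and 37.3 CPM in TICs, against 29.2, 49.2, 27.7 and 11.3 CPM in parental cells, higher in H1299 and CALU and lower in the other lines. The log2 fold changes in TICs over parental cells were −0.05 ± 0.75 for SGSH, −0.51 ± 0.74 for GALNS, −0.11 ± 0.57 for ARSB and −1.02 ± 1.0 for ARSA (± SE, n = 4 lines, edgeR adjusted p from 0.750 to 0.990). The sign turned under other settings for SGSH (up to 0.82), GALNS (up to 0.09) and ARSB (up to 0.48).

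The products of the 9 glycosidase and neuraminidase genes trim sugars from glycans and glycolipids. Each gene had a log2 fold change above 0 in TICs over parental cells (median 0.77), beside 48.7% of all genes. The rise was not uniform: the median within a line was lowest in H1703 (−0.13) and highest in CALU (1.83). GLA, at 0.09, was higher in TICs of H1703 alone and lower in the other lines. Only 1 of the 9 was higher in 4 of 4 lines (beside 8.32% of all genes), and only that gene reached an unadjusted p under 0.05. This was HEXA, the alpha subunit of beta-hexosaminidase, which breaks down ganglioside GM2. It had 31.5, 31.8, 24.0 and 67.3 CPM in TICs of H1703, H1299, CHAGO and CALU, against 16.9, 18.7, 23.5 and 25.2 CPM in parental cells, and CHAGO hardly differed. IDUA, which acts next to IDS in the breakdown of dermatan and heparan sulfate, had 15, 4, 0 and 372 reads in TICs of H1703, H1299, CHAGO and CALU, against 0, 0, 1 and 25 reads in parental cells. In CALU this was 4.49 CPM in TICs and 0.289 CPM in parental cells, while the other lines had few reads or none. With 3 reads of the unscaled total taken as the limit, the parental libraries of H1703 and H1299 could have held up to 0.113 and 0.0832 CPM unseen. GUSB, beta-glucuronidase, is described with the knockdown below.

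Of the 5 genes for lipid hydrolases and their activator, PSAP and ASAH1 were among the 13. PSAP encodes prosaposin, the precursor of the saposins that help hydrolases reach sphingolipids. It had 2280 CPM in H1703 TICs, 1690 CPM in H1299, 766 CPM in CHAGO and 1960 CPM in CALU, against 1120, 289, 608 and 416 CPM in parental cells. Each TIC library was the higher in its line, by 2.55 and 2.24 on the log2 scale in H1299 and CALU and by 1.02 and 0.33 in H1703 and CHAGO. The log2 fold change was 1.51 ± 0.34 SE (edgeR adjusted p = 0.188). ASAH1, acid ceramidase, had 22.9, 118, 20.9 and 304 CPM in TICs of H1703, H1299, CHAGO and CALU, against 5.64, 24.7, 29.3 and 40.0 CPM in parental cells, lower in TICs of CHAGO and higher in those of the other 3 lines (1.64 ± 0.50 SE, edgeR adjusted p = 0.260). LIPA, SMPD1 and PPT1, which cleave cholesteryl esters, sphingomyelin and the fatty acids bound to proteins, did not reach an unadjusted p under 0.05.

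Among 10 protease genes, 4 were in the 13 and none passed. TPP1, a peptidase that removes tripeptides, had 57.0 CPM in H1703 TICs, 267 CPM in H1299, 22.2 CPM in CHAGO and 684 CPM in CALU, against 61.4, 74.4, 6.21 and 157 CPM in parental cells. It was higher in TICs of 3 lines by 1.83 to 2.12 on the log2 scale and lower in H1703 by 0.11 (log2 fold change 1.45 ± 0.34 SE, edgeR adjusted p = 0.197). The cysteine protease CTSB had 14.1, 125, 23.4 and 1460 CPM in TICs of H1703, H1299, CHAGO and CALU, against 15.8, 28.9, 11.2 and 224 CPM in parental cells (1.48 ± 0.47 SE, edgeR adjusted p = 0.279). CALU held most of its reads in each state. CTSL1, the gene of cathepsin L, had 139, 74.2, 289 and 764 CPM in TICs of H1703, H1299, CHAGO and CALU, against 136, 90.2, 81.7 and 108 CPM in parental cells, lower in TICs of H1299 and hardly different in H1703. RefSeq lists 6 pseudogene copies of it, so its reads are uncertain in origin. CTSD, the main lysosomal aspartic protease, had 363 CPM in CALU TICs and 46.4 CPM in CALU parental cells, with 9.85 to 35.9 CPM in TICs and 7.55 to 15.1 CPM in parental cells of the other lines (1.21 ± 0.46 SE, edgeR adjusted p = 0.341).

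Cathepsins known from immune cells and osteoclasts differed widely between lines. CTSS, expressed in antigen-presenting cells, had no read in any H1703 library and 297, 60.0 and 5.39 CPM in knockdown TICs, TICs and parental cells of CALU. CTSK, the collagen-cleaving cathepsin of osteoclasts, had 18.7, 0.0646 and 0.156 CPM in the same states of H1299. CTSC, which activates granule proteases, lay between 0.656 and 1.67 CPM in H1703 and between 284 and 569 CPM in CALU. None of these 3 genes reached an unadjusted p under 0.05 in any of the 3 comparisons.

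Membrane and transport genes gave 5 of the 13. CD63, a tetraspanin of late endosomes, lysosomes and exosomes, had 780 CPM in H1703 TICs, 3030 CPM in H1299, 441 CPM in CHAGO and 3000 CPM in CALU, against 657, 920, 134 and 1040 CPM in parental cells. The difference was 1.53 to 1.72 on the log2 scale in 3 lines and 0.25 in H1703. Its log2 fold change was 1.29 ± 0.25 SE (edgeR adjusted p = 0.131), and it passed with limma voom (1.41, adjusted p = 0.0484, where 0.0714% of all genes passed) and with DESeq2 (1.33, adjusted p = 0.000415). NPC2, the soluble lysosomal cholesterol carrier, had 36.1, 231, 27.0 and 280 CPM in TICs, against 30.6, 81.3, 4.02 and 72.9 CPM in parental cells of H1703, H1299, CHAGO and CALU (1.57 ± 0.41 SE, edgeR adjusted p = 0.207). NPC1, the membrane protein that takes cholesterol from NPC2, had 367, 113, 283 and 1790 CPM in TICs, against 130, 162, 81.5 and 297 CPM in parental cells (1.33 ± 0.44 SE, edgeR adjusted p = 0.293). Both genes of this cholesterol pair were thus higher in TICs of H1703, CHAGO and CALU, while in H1299 NPC2 was higher and NPC1 lower. SCARB2, the receptor that brings beta-glucocerebrosidase to the lysosome, had 156, 300, 252 and 603 CPM in TICs, against 108, 129, 182 and 234 CPM in parental cells (0.87 ± 0.23 SE, edgeR adjusted p = 0.210). LAMP2, a glycoprotein of the lysosomal membrane, had 451, 527, 303 and 1850 CPM in TICs, against 354, 199, 275 and 759 CPM in parental cells (0.77 ± 0.24 SE, edgeR adjusted p = 0.262). Its paralog LAMP1 was higher in TICs of H1299 and CALU and lower in the other lines.

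The proton pump genes differed in opposite directions between lines. The 4 log2 fold changes of TICs over parental cells were 0.38 ± 0.49 for ATP6AP1, an accessory subunit, 0.35 ± 0.37 for ATP6V0D1, a membrane-sector subunit, 0.24 ± 0.21 for ATP6V1A, the catalytic subunit, and 0.18 ± 0.27 for ATP6V1H, a regulatory subunit (± SE, n = 4 lines, edgeR adjusted p from 0.714 to 0.851). ATP6AP1 had 60.9, 104, 35.0 and 191 CPM in TICs of H1703, H1299, CHAGO and CALU, against 78.1, 45.5, 55.5 and 49.5 CPM in parental cells. It was higher in TICs of CALU and H1299, by 1.95 and 1.20 on the log2 scale, and lower in the other lines. ATP6V0D1 had 133, 85.4, 46.4 and 74.5 CPM in TICs, against 93.2, 40.7, 79.6 and 41.7 CPM in parental cells, lower in TICs of CHAGO and higher in those of the other 3 lines. ATP6V1A was 569 CPM in TICs and 686 CPM in parental cells of CHAGO, and 153 to 242 CPM in TICs and 141 to 149 CPM in parental cells of the other 3 lines. ATP6V1H lay at 21.6, 54.4, 23.3 and 33.7 CPM in TICs, against 20.4, 56.6, 13.5 and 34.2 CPM in parental cells of H1703, H1299, CHAGO and CALU, and so kept the level of its line except in CHAGO. Without CALU the value for ATP6AP1 was −0.08, and in CHAGO and CALU alone that for ATP6V0D1 was −0.08.

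The transcription factors had no common direction over the lines. TFE3 had 61.2 CPM in H1703 TICs, 32.0 CPM in H1299, 5.92 CPM in CHAGO and 32.1 CPM in CALU, against 43.4, 76.4, 8.55 and 27.2 CPM in parental cells, higher in TICs of H1703 and CALU and lower in the others (log2 fold change −0.23 ± 0.64 SE, edgeR adjusted p = 0.930, and 0.21 without H1299). TFEB was scarce, with 30, 6, 92 and 63 reads in TICs of those lines, against 150, 0, 215 and 81 reads in parental cells. Its log2 fold change was −0.21 ± 1.81 SE (edgeR adjusted p = 0.979), and it was 0.66 without H1703 and 0.25 without CHAGO. These are RNA levels, and the place of the proteins in the cell was not measured.

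**Figure D3:**
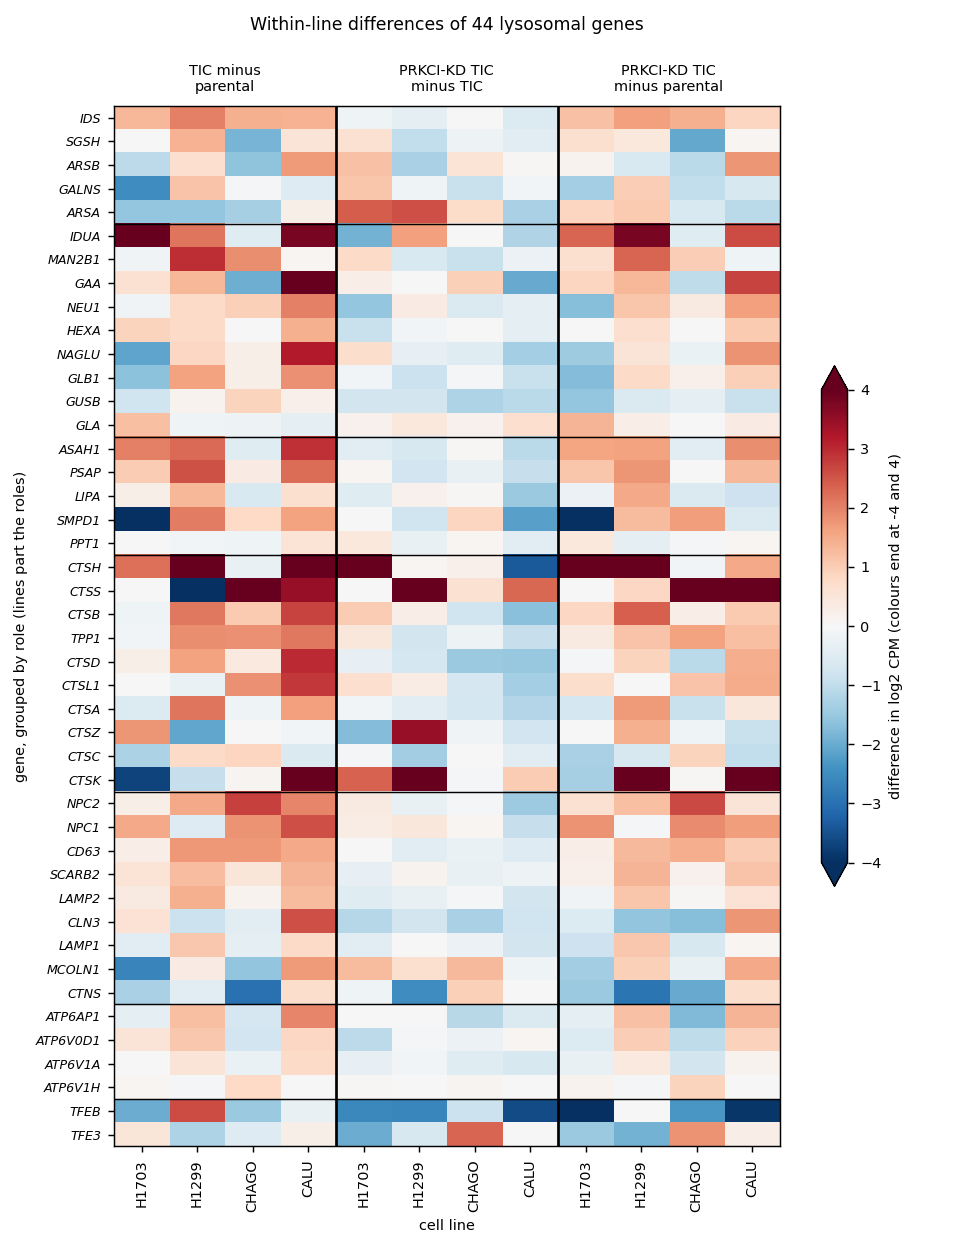
Difference in log2 CPM within each line for 44 lysosomal genes (rows, grouped by role) in TICs minus parental cells, PRKCI knockdown TICs minus TICs, and PRKCI knockdown TICs minus parental cells (columns, by line). In the first block 38 of 44 genes are higher in CALU and 32 in H1299, against 24 in H1703 and 22 in CHAGO.

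PRKCI knockdown TICs were below TICs for most of the 44 genes. The log2 fold change of knockdown TICs over TICs was above 0 for 10 of 44, beside 49.1% of all genes, with a median of −0.37, beside −0.01 over all genes. No member passed in edgeR, where 2 of all genes (0.0143%) did, in DESeq2, where 11 (0.0785%) did, or in limma voom, where 1 (0.00714%) did. An unadjusted p under 0.05 was reached by 3 (beside 4.28% of all genes), of which 3 were lower (beside 2.2%) and 0 higher (beside 2.08%). In 4 of 4 lines 10 were lower (beside 7.14%) and 1, GLA, the alpha-galactosidase gene, was higher (beside 7.23%). The 10 were IDS, GUSB, CTSD, TFEB, ATP6V1A, LAMP2, CTSA, CLN3, HEXA and GLB1, with IDS and HEXA within 0.01 of no difference on the log2 scale in CHAGO. The line medians were −0.72 in CALU, −0.23 in H1299, −0.09 in CHAGO and 0.00 in H1703. Over all genes these medians were 0 in each line. A difference of at least 1 downward was reached by 15 genes in CALU, 4 in H1299, 4 in CHAGO and 7 in H1703, and upward by 2, 5, 2 and 7 genes in that order. The share of all genes past 1 in each line was not counted here either. This comparison and that of TICs with parental cells share the TIC libraries, so a high TIC value moves them in opposite directions, and the order of lines was not tested. Without CALU 16 of 43 genes were above 0 and the median was −0.19. None reached an unadjusted p under 0.05 there, where 401 of all 13743 genes did. Without H1299 0 lower genes and 1 higher gene reached it, where 481 of all 14599 genes did in either direction. Without the CALU knockdown library alone 1 lower gene reached it (median −0.27), where 480 of all 14396 genes did in either direction. The median of 15 proliferation genes was 0.06 in this comparison.

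GUSB, beta-glucuronidase, had 6.60 CPM in H1703 knockdown TICs, 32.0 CPM in H1299, 9.29 CPM in CHAGO and 13.4 CPM in CALU, against 11.1, 52.7, 22.0 and 28.2 CPM in TICs. The knockdown library was the lower in each line, by 0.72 to 1.24 on the log2 scale (log2 fold change −0.96 ± 0.34 SE, unadjusted p = 0.0171, edgeR adjusted p = 0.980). GUSB was also below its parental level, at 19.3, 47.8, 11.9 and 24.8 CPM in parental cells, in 4 of 4 lines. RefSeq lists 19 numbered pseudogene copies of GUSB, so its reads are uncertain in origin. CTSD had 14.2, 21.9, 3.54 and 127 CPM in knockdown TICs of H1703, H1299, CHAGO and CALU, against 17.7, 35.9, 9.85 and 363 CPM in TICs (−1.03 ± 0.44 SE, unadjusted p = 0.0422, edgeR adjusted p = 0.980). TFEB had 5, 0, 46 and 2 reads in knockdown TICs of those lines, against 30, 6, 92 and 63 reads in TICs (−3.35 ± 1.48 SE, unadjusted p = 0.0462, edgeR adjusted p = 0.980). In H1299 3 reads, the limit of detection, stand for 0.142 CPM in the knockdown library and 0.107 CPM in the TIC library, so the difference in that line lies near the limit. TFE3, at 15.4, 20.6, 29.8 and 32.7 CPM in knockdown TICs of the 4 lines, against 61.2, 32.0, 5.92 and 32.1 CPM in TICs, was lower in H1703 and H1299, higher in CHAGO and alike in CALU (0.09 ± 0.69 SE, edgeR adjusted p = 0.998), and the sign turned without CHAGO (−0.83).

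Of the other genes with the smallest p after knockdown, ATP6V1A was at 122, 194, 408 and 154 CPM in knockdown TICs of H1703, H1299, CHAGO and CALU, against 153, 209, 569 and 242 CPM in TICs (−0.39 ± 0.21 SE). LAMP2 was at 319, 432, 285 and 1130 CPM, against 451, 527, 303 and 1850 CPM in TICs (−0.41 ± 0.24 SE). CTSA, a carboxypeptidase that also protects beta-galactosidase and neuraminidase, was at 103, 162, 25.7 and 207 CPM, against 112, 221, 42 and 463 CPM in TICs (−0.64 ± 0.43 SE). Each of these genes was lower in 4 of 4 lines with an edgeR adjusted p of 0.980. PSAP (−0.52 ± 0.33 SE) was lower in 3 lines and 0.09 higher in H1703 on the log2 scale.

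Against parental cells, knockdown TICs were the higher state for most of the genes. Of the 44 genes 28 had a log2 fold change above 0 (beside 47.1% of all genes), with a median of 0.25, beside −0.05. At an unadjusted p under 0.05 there were 8 higher (beside 5.45%) and 2 lower (beside 5.29%), and in 4 of 4 lines 9 were higher (beside 8.10%) and 1, GUSB, was lower (beside 9.11%). The majority was small without some lines: without CALU 22 of 43 genes were above 0 (median 0.15), and without H1299 24 of 44 (median 0.12). The median was 0.49 without H1703 and 0.51 without CHAGO, and 24 of 44 genes were above 0 on library totals without TMM (median 0.19). With no line term 0 of the 44 genes reached an unadjusted p under 0.05, where 319 of all 14008 genes did, and the median was 0.39. In the same comparison 15 of 15 proliferation genes were below 0, and their part in the lysosomal values was not tested. The 8 higher genes were IDS, CD63, TPP1, SCARB2, PSAP, NPC2, NPC1 and CTSB, each of which is also among the 13 in TICs over parental cells, a comparison with the same parental libraries. CD63 had 788, 2280, 368 and 2080 CPM in knockdown TICs of H1703, H1299, CHAGO and CALU (log2 fold change 0.97 ± 0.24 SE, edgeR adjusted p = 0.222, and called by DESeq2). TPP1 had 78.5, 162, 19.1 and 358 CPM (1.02 ± 0.33 SE), and NPC2 had 46.4, 187, 25.4 and 103 CPM (1.19 ± 0.40 SE). For SCARB2 the value was 0.70 ± 0.23 SE, for PSAP 0.99 ± 0.33 SE and for NPC1 1.23 ± 0.43 SE (edgeR adjusted p from 0.307 to 0.341 for these 5 genes). No member passed in edgeR, where 5 of all genes (0.0357%) did, and DESeq2, which called 400 of all genes (2.86%), called IDS, CD63 and CTSH. CTSH had 164, 52, 226 and 459 reads in knockdown TICs of H1703, H1299, CHAGO and CALU, against 0, 0, 216 and 195 reads in parental cells. Its edgeR log2 fold change was 4 ± 2.1 SE (unadjusted p = 0.086, edgeR adjusted p = 0.533). In limma voom 0 members and 0.0428% of all genes passed. The 2 lower genes were GUSB and TFEB, the last at −3.56 ± 1.42 SE (edgeR adjusted p = 0.412). TFE3 stood at −0.14 ± 0.69 SE (edgeR adjusted p = 0.962), and turned to 1.17 in CHAGO and CALU alone.

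Other lysosomal genes were read from lists chosen with earlier results known. Of 28 further hydrolases tested, 20 had a log2 fold change above 0 in TICs over parental cells (beside 48.7% of all genes), with a median of 0.32. At an unadjusted p under 0.05 there were 4 higher (beside 5.73%) and 0 lower (beside 6.06%), and none passed the adjusted threshold. GM2A, the activator that presents ganglioside GM2 to HEXA, averaged 105 CPM in TICs and 58.7 CPM in parental cells (0.81 ± 0.23 SE), the hyaluronidase gene HYAL2 averaged 13.1 and 4.99 CPM (1.60 ± 0.51 SE) and the cathepsin gene CTSO averaged 43.2 and 7.75 CPM (1.73 ± 0.59 SE). After knockdown 22 of the 28 were below their TIC level and 6 above it (beside 49.1% of all genes above), with a median of −0.46. At an unadjusted p under 0.05 there were 4 lower (beside 2.2%) and 1 higher (beside 2.08%). Against parental cells 14 of the 28 were above 0 (median −0.01). AGA, which cuts sugar from asparagine, averaged 19.3 CPM in knockdown TICs and 9.59 CPM in TICs and was higher in 4 of 4 lines.

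Of 21 further membrane genes, 16 were above 0 in TICs over parental cells (beside 48.7% of all genes), with a median of 0.69 and 5 higher at an unadjusted p under 0.05 (beside 5.73%). SLC17A5, the exporter of sialic acid, averaged 176 CPM in TICs and 68.6 CPM in parental cells (1.09 ± 0.28 SE). GPNMB, a glycoprotein known as a target of the TFEB family, averaged 167 and 16.8 CPM (3.21 ± 1.06 SE) and was higher in TICs of 4 of 4 lines, as was TMEM127, a membrane protein that restrains mTORC1, at 27.6 and 11.8 CPM (1.13 ± 0.38 SE). After knockdown 13 of the 21 were below their TIC level and 8 above it (beside 49.1% of all genes above), with a median of −0.18. None reached an unadjusted p under 0.05 (beside 4.28% of all genes). Among those above, OSTM1, the partner of the chloride transporter CLCN7, averaged 124 CPM in knockdown TICs and 72.8 CPM in TICs. SLC38A9, an amino acid sensor, averaged 62.1 and 31.2 CPM. Both were higher in 4 of 4 lines (unadjusted p = 0.0672 and 0.143 in edgeR). Of 17 further subunits of the proton pump, 15 were above 0 in TICs over parental cells (beside 48.7% of all genes), with a median of 0.39 and 4 higher at an unadjusted p under 0.05 (beside 5.73%), among them ATP6V0E1 (0.77 ± 0.27 SE) and ATP6AP2, the prorenin receptor (0.69 ± 0.27 SE). For ATP6V0D2, a subunit of osteoclast pumps, TICs averaged 7.81 CPM and parental cells 0.00866 CPM, and only H1299 and CALU differed. After knockdown 11 of the 17 were below their TIC level and 6 above it (beside 49.1% of all genes above), with a median of −0.17. At an unadjusted p under 0.05 there were 0 (beside 4.28% of all genes). ATP6V0B averaged 20.5 CPM in knockdown TICs and 33.3 CPM in TICs and ATP6V0E1 281 and 371 CPM, both lower in 4 of 4 lines (unadjusted p = 0.140 and 0.143 in edgeR). None of these genes passed over all genes in edgeR.

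A further 4 lists hold genes that act around the lysosome, and no test compared the lists. The median log2 fold change of TICs over parental cells was 0.15 for 17 genes of mannose 6-phosphate tagging, sorting and sulfatase activation, 0.13 for 23 autophagy genes, 0.12 for 21 genes of mTORC1 and TFEB control and 0.12 for 16 genes of lysosome position and fusion, beside −0.02 over all genes. In knockdown TICs over TICs the medians were −0.23, 0.15, 0.09 and 0.00 in that order, and in knockdown TICs over parental cells 0.08, 0.31, 0.09 and 0.10. In the last comparison 17 of the 23 autophagy genes were above 0 (beside 47.1% of all genes), and at an unadjusted p under 0.05 there were 2 above (beside 5.45%) and 1 below (beside 5.29%). SUMF1, which makes the active-site residue of all sulfatases, averaged 22.7 CPM in TICs and 26.1 CPM in parental cells (−0.77 ± 0.46 SE). IGF2R, a mannose 6-phosphate receptor, averaged 375 and 208 CPM (0.71 ± 0.32 SE), higher in TICs of H1299 and CALU and lower by at most 0.18 on the log2 scale in the other lines, and SUMF2, a paralog of SUMF1, 98.6 and 71.3 CPM (0.33 ± 0.25 SE). After knockdown the sorting genes AP1M1 and SORT1 averaged 3.36 and 53.2 CPM in knockdown TICs, against 6.61 and 76.9 CPM in TICs, with unadjusted p of 0.148 and 0.180 in edgeR. ATG9A, the lipid scramblase of early autophagosomes, averaged 39.9 and 16.5 CPM (1.25 ± 0.29 SE), higher in TICs of 4 of 4 lines. ATG3, the enzyme that joins ATG8 proteins to lipid, averaged 92 and 145 CPM (−0.72 ± 0.22 SE) and was lower in TICs of 4 of 4 lines, and its substrate GABARAPL1 averaged 242 and 127 CPM (0.72 ± 0.33 SE). After knockdown ATG9A averaged 26 CPM in knockdown TICs and 39.9 CPM in TICs and ATG16L1 14.5 and 27.8 CPM (unadjusted p = 0.0688 and 0.110 in edgeR). FNIP1, a partner of folliculin in mTORC1 control, averaged 215 CPM in TICs and 129 CPM in parental cells (0.67 ± 0.19 SE), ZKSCAN3, a repressor of autophagy genes, 3.3 and 11.8 CPM (−1.43 ± 0.66 SE) and RRAGD, a Rag GTPase, 72.5 and 24.7 CPM (2.24 ± 1.08 SE). TSC1, which restrains mTORC1, averaged 113 CPM in knockdown TICs and 81.0 CPM in TICs (0.47 ± 0.21 SE) and FNIP1 255 and 215 CPM, both higher in 4 of 4 lines. Of the fusion genes PLEKHM1 averaged 8.34 CPM in TICs and 3.58 CPM in parental cells, VPS11 73.9 and 50.3 CPM and STX7 212 and 167 CPM (unadjusted p from 0.0739 to 0.174 in edgeR), while VPS11 averaged 57.7 CPM in knockdown TICs and 73.9 CPM in TICs. None of these genes passed over all genes in edgeR.

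Proliferation genes had log2 fold changes below 0 against parental cells. Of 15 such genes 0 were above 0 in TICs over parental cells (beside 48.7% of all genes), with a median of −1.11 and 11 lower at an unadjusted p under 0.05 (beside 6.06%). None passed the adjusted threshold in edgeR, where MCM3, MCM4 and MCM2 had adjusted p of 0.197 to 0.258, and their summed level was 1010 to 5950 CPM in TICs and 3920 to 5850 CPM in parental cells. The line medians were −2.45 in CALU and −1.58 in H1299, where the lysosomal medians were 1.56 and 1.11, and −0.42 in H1703 and 0.43 in CHAGO, where they were 0.03 and 0.00. In knockdown TICs over parental cells 0 of the 15 were above 0 (beside 47.1% of all genes), with a median of −1.06, beside 0.25 for the lysosomal genes. There 9 were lower at an unadjusted p under 0.05 (beside 5.29%) and 8 were lower in 4 of 4 lines (beside 9.11%). In knockdown TICs over TICs 9 of the 15 were above 0 (beside 49.1%), with a median of 0.06, beside −0.37 for the lysosomal genes, and none reached an unadjusted p under 0.05. With 4 lines this is a description, and its part in the lysosomal values was not tested.

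**Figure D4:**
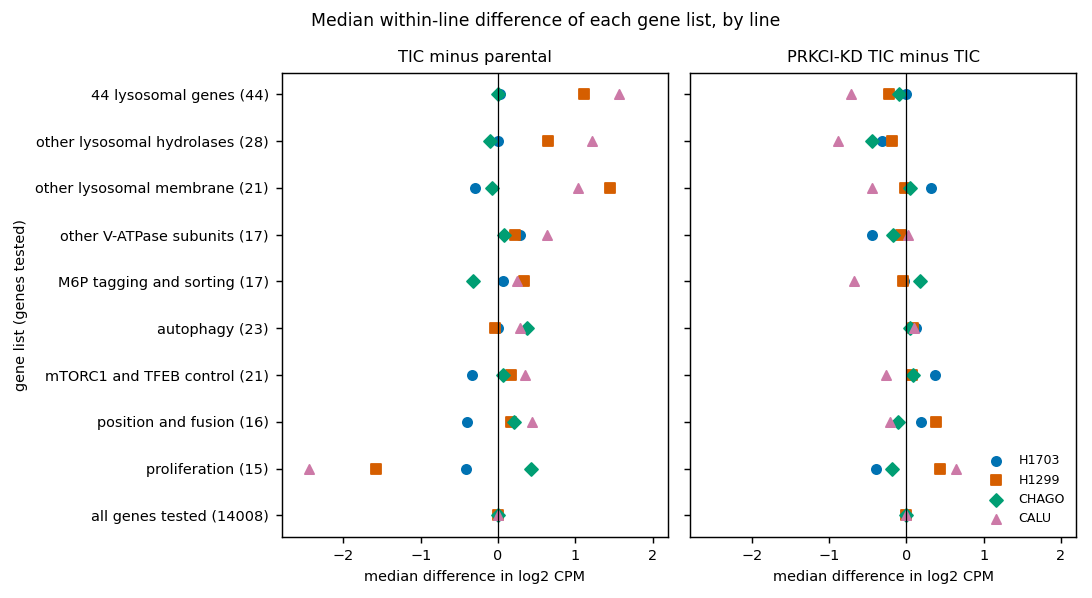
Median within-line difference in log2 CPM of each gene list, with 1 marker per cell line, for TICs minus parental cells and for PRKCI knockdown TICs minus TICs. In the first panel the 44 lysosomal genes lie at 1.56 in CALU and 1.11 in H1299, while the proliferation genes lie at −2.45 and −1.58 in the same lines.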

How the data were processed

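The authors deposited a table of raw read counts per gene for 12 libraries, per the file headers, and a table of mode-normalized values, a score equal to each count times 1 factor per library and rounded, per a comparison of both deposited tables. CASAVA 1.4, TopHat 1.4, HTSeq 0.5.3p3 and build hg19 are named per the submitters' processing notes, with no role given. RNA was extracted with Qiagen and prepared with NuGEN kits, per the labels' protocols. The sources used here state neither strandedness nor how reads with several matches were treated.

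Columns were joined to samples by name. The CALU knockdown column lacks 1 letter of its sample title. Genes were filtered with edgeR 4.0.16 filterByExpr (R 4.3.3), which left 14008 of 22506, of which 4044 have no read. Counts were scaled by TMM and fitted with edgeR's robust quasi-likelihood model with terms for state and line on all 12 libraries (6 residual degrees of freedom, common dispersion 0.489), with two-sided tests and p-values adjusted over all 14008 genes by Benjamini-Hochberg (threshold 0.05). The standard error is the log2 fold change over the root of F. Levels are CPM on TMM-scaled totals, and within-line differences are of log2 CPM with a prior count of 2. The model was run on simulated counts with 1 common dispersion and no differences between lines, so that run could not check the line term. Libraries were paired by the line in the labels: after each state's mean was removed, the 12 same-line pairs correlated at 0.553 to 0.760 across genes and the 36 pairs of other lines at −0.414 to −0.0601. Removing the mean of 4 lines by itself pulls pairs of other lines below 0, so their negative sign says nothing about the pairing. Limits of detection cover counting error only.

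The 44 genes, further lists and tests were chosen with earlier results of these data known. Values are given for IDS, TFEB and TFE3, the 10 other members of smallest p in TICs over parental cells and 6 in each other comparison, the other sulfatases, the proton pump genes, and, from each further list, the 3 genes of smallest p in TICs over parental cells and the 2 in knockdown TICs over TICs (marker lists by their sums); 2 genes so chosen are not reported here. HEXA, CTSL1, IDUA, CTSS, CTSK, CTSC, CTSH, GLA and LAMP1 were named after their values were seen. LAMTOR4 and LAMTOR5 were matched through an older symbol. Alternatives were other scaling, filters, blocks, lines and tools (DESeq2 1.42.0, limma 3.58.1 voom, and limma on log2 of mode-normalized values plus 1), and, added after seeing the data, leaving out the CALU knockdown library.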

Additional observations from a re-analysis of the deposited data

Results flagged for a closer look

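In 69 groups of 4 libraries (23 named genes in 3 states), 2 held a library far from the other 3 by Dixon's test at the 95% level, on log2 of CPM plus 0.1. Chance flags about 1 in 20 such groups. ATP6V1A, the catalytic pump subunit, was at 686 CPM in CHAGO parental cells, against 141 to 149 CPM in the other parental libraries. CHAGO was also the highest line for this gene in TICs (569 CPM) and in knockdown TICs (408 CPM). GALNS was at 8.74 CPM in H1299 knockdown TICs, against 1.51 to 2.03 CPM in the other knockdown libraries.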

How the results depend on the processing

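The count of called lysosomal genes in TICs over parental cells was 1 (IDS). It was 9 with DESeq2, 2 with limma voom and 2 with mode-normalized values (both times CD63 and IDS), and 0 with no replicate block, in H1703 and H1299 alone, in CHAGO and CALU alone and from the compared groups alone. Without 1 line in turn it was 0 to 0. The IDS log2 fold change was 1.39 to 1.60 without 1 line and lost its call there, as it did with no replicate block (1.45), in H1703 and H1299 alone (1.70, adjusted p = 0.314), in CHAGO and CALU alone (1.41, adjusted p = 0.623) and from the compared groups alone (1.56). It stayed between 1.39 and 1.70 in every setting run, with adjusted p from 1.06e-10 to 1. For knockdown TICs over parental cells the count was 0. It was 1 (IDS) with DESeq2 size factors, a filter of 5 CPM and mode-normalized values, and 3 with DESeq2. IDS was 1.31, 1.28, 1.33 and 1.31 there, past the threshold. Without 1 line IDS was 1.18 to 1.4 and did not pass (edgeR adjusted p from 0.165 to 0.249). For knockdown TICs over TICs the count was 0 in every setting run, and IDS lay at −0.36 to −0.19 without 1 line. Without the CALU knockdown library, an alternative chosen after seeing the data, no named lysosomal result changed its call or direction, while the calls over all genes were 4, 0 and 0 in TICs over parental cells, knockdown TICs over TICs and knockdown TICs over parental cells. The causes were not tested.

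Of 36 named results besides IDS, 24 kept their direction in all 16 settings and 9 turned in at least 1. The other 3, ARSA in TICs over parental cells and TFEB in both knockdown comparisons, kept it in each setting run, and the filter of 5 CPM gave them no value. In TICs over parental cells SGSH turned with no replicate block (0.39), voom (0.23), mode-normalized values (0.16), H1703 and H1299 alone (0.82), without CHAGO (0.71) and the compared groups alone (0.07). ARSB turned with no replicate block (0.25), voom (0.26), mode-normalized values (0.07), H1703 and H1299 alone (0.01), without H1703 (0.15) and without CHAGO (0.48), and GALNS with no replicate block (0.08) and without H1703 (0.09). TFEB turned in H1703 and H1299 alone (0.62), without H1703 (0.66) and without CHAGO (0.25), TFE3 without H1299 (0.21), ATP6V0D1 in CHAGO and CALU alone (−0.08) and ATP6AP1 without CALU (−0.08). In knockdown TICs over TICs, TFE3 turned with no replicate block (−0.41), voom (−0.02), mode-normalized values (−0.14), H1703 and H1299 alone (−1.39), without CHAGO (−0.83) and the compared groups alone (−0.12), and in knockdown TICs over parental cells in CHAGO and CALU alone (1.17), without H1703 (0.20) and without H1299 (0.53). Without 1 line the ranges were −0.56 to 0.71 for SGSH, −0.58 to 0.48 for ARSB, −0.95 to 0.09 for GALNS, −0.08 to 0.89 for ATP6AP1, −1.19 to 0.66 for TFEB and −0.58 to 0.21 for TFE3 in TICs over parental cells, and −0.83 to 0.78 and −1.01 to 0.53 for TFE3 in knockdown TICs over TICs and over parental cells.

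Over all genes, TICs over parental cells gave 4 calls in edgeR (3 higher, 1 lower), 512 in DESeq2 (324 higher, 188 lower), 10 in voom (9 higher, 1 lower), 43 with mode-normalized values (41 higher, 2 lower) and 0 with no replicate block. Knockdown TICs over TICs gave 2, 11, 1, 1 and 0 in that order, and knockdown TICs over parental cells 5 (3 higher, 2 lower), 400, 6, 20 (18 higher, 2 lower) and 0, and 8 (6 higher, 2 lower) with DESeq2 size factors. Each pair of lines alone and the compared groups alone gave 0 in each comparison, the filter of 5 CPM gave 0 in knockdown TICs over TICs, and without 1 line the counts were 0, 0 to 1 and 0 to 2. Mode-normalized values put the median of all genes at 0.11 in TICs over parental cells, where TMM put it at −0.02, and that of the 44 genes at 0.66. With 1 library per line and state, no change within a single line could be tested.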
